A study of Mus musculus with 12 samples.

Results

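The NADPH oxidase of phagocytes was examined through 7 genes, *Cyba*, *Cybb*, *Ncf1*, *Ncf4*, *Rac1*, *Rac2* and *Hvcn1*, chosen by name from the 52636 genes listed in both count tables. RNA had been sequenced from neutrophils and from monocyte/macrophages of the bone marrow of C57BL/6J mice aged 8 to 12 weeks, with 3 libraries in each of 4 groups and 12 in all. Neutrophils, enriched with a cell separation kit, were exposed to 1 nM CGRP or to saline (PBS) for 4 h directly after isolation. Monocytes were first kept for 3 days with the growth factor M-CSF at 10 ng/ml, under which they become macrophages, and then received the same 4 h of 1 nM CGRP or PBS. No mutation or transgene was named for these mice, and whether libraries of one group came from separate mice was not given, so that the p-values measure the spread between these libraries, which may be technical.

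CGRP is a neuropeptide released by pain-sensing neurons, and its receptor on myeloid cells signals through cyclic AMP. The phagocyte NADPH oxidase is the enzyme with which neutrophils and macrophages make superoxide. Its membrane core is a pair of proteins, gp91phox (NOX2, from *Cybb*), which carries the electrons, and p22phox (from *Cyba*), which keeps gp91phox stable. On activation the cytosolic subunits p47phox (*Ncf1*) and p40phox (*Ncf4*) move to the membrane together with the GTPase Rac, either Rac1 or Rac2, while the proton channel HV1 (*Hvcn1*) lets protons out and so balances the charge that the electrons carry across. Loss of the core or of a cytosolic subunit causes chronic granulomatous disease.

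Libraries held between 2002559 and 3631989 counts, each count a molecule identified by its barcode. Levels are given as CPM, the counts of a gene scaled to the library total, with TMM factors over all 12 libraries, and since reads come from the 3′ end of transcripts, levels are compared between groups and not between genes. A limit of 3 counts corresponded to between 0.826 and 1.50 CPM and covers counting error only. Every one of the 7 genes lay far above it, the lowest count of any in a library being 206 (*Hvcn1*, CGRP macrophages), and all 7 passed the filter on low counts in every comparison. The cell types carried their own markers. The 14 neutrophil markers summed to between 163895 and 244488 CPM in neutrophil libraries and to between 310 and 452 CPM in macrophage libraries, with *S100a8* the most abundant. The 11 macrophage markers summed to between 1788 and 2285 CPM in neutrophils and to between 35273 and 50548 CPM in macrophages, with *Apoe* the most abundant. Neutrophil libraries also held red cell markers (5799 to 7410 CPM, mostly *Hbb-bs*), eosinophil and basophil markers (886 to 1125 CPM, mostly *Prg2*), B cell markers (620 to 720 CPM, mostly *Ighm*), and T and NK cell markers (82.4 to 130 CPM, mostly *Nkg7*), and in macrophage libraries each of these sums was lower, the B cell markers being the highest of them (102 to 145 CPM). Platelet markers, mostly *Pf4*, summed to between 126 and 189 CPM in neutrophil libraries and to between 631 and 977 CPM in macrophage libraries. Dendritic cell markers summed to at most 14.9 CPM in any library. In such bulk libraries fewer cells of a type and less RNA per cell cannot be told apart.

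**Figure D1:**
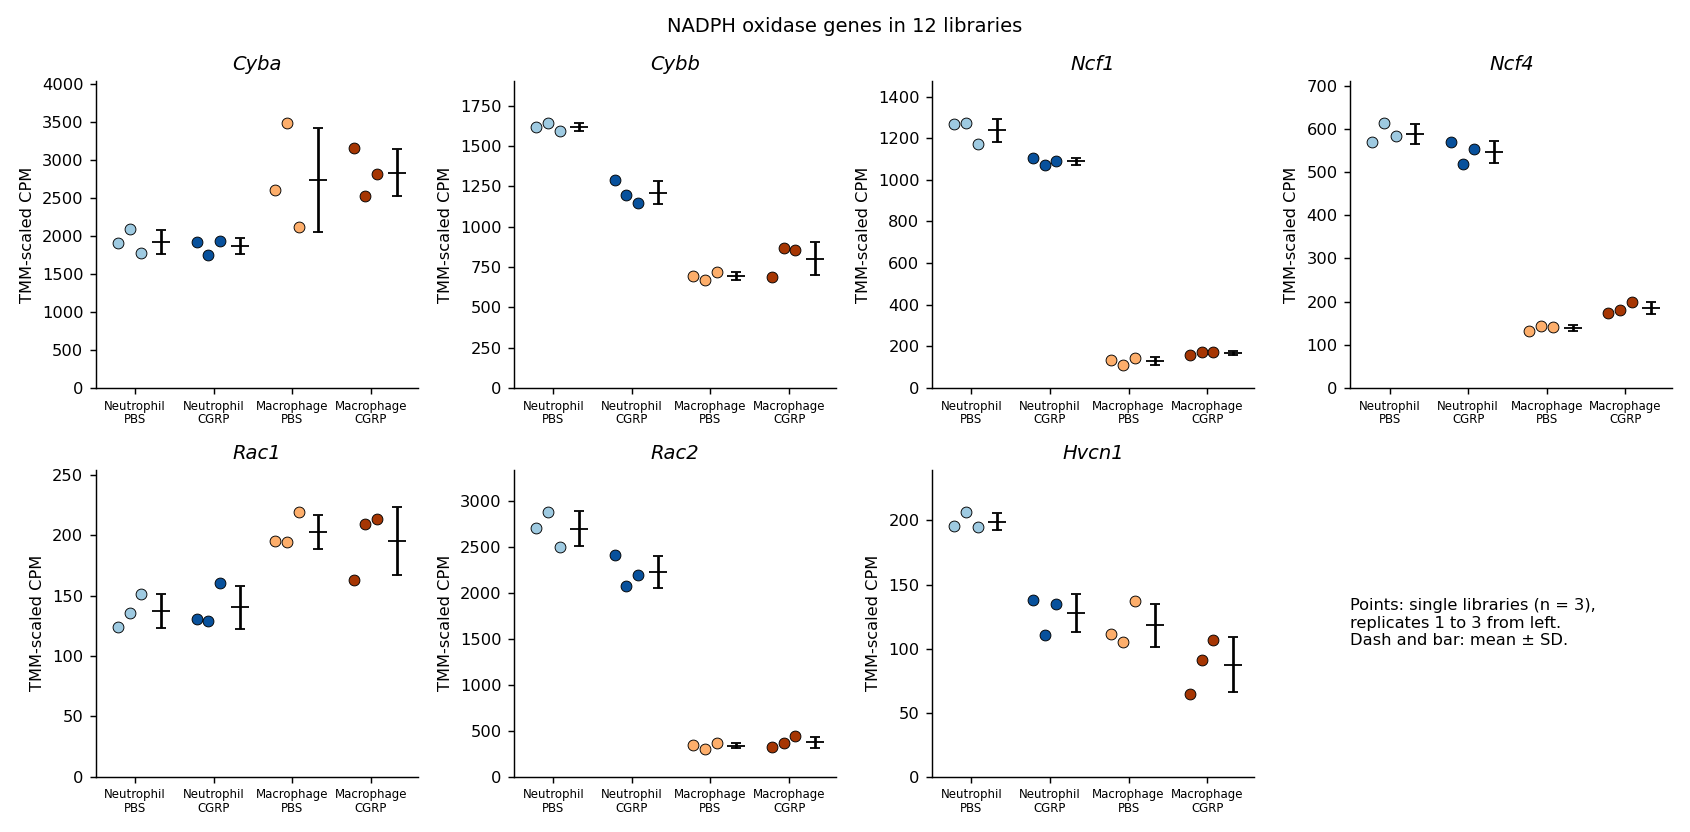
Level of each of the 7 genes (y axis, TMM-scaled CPM, from 0) in PBS and CGRP neutrophils and macrophages (x axis); points are single libraries, dashes and bars the mean and SD of 3. *Cybb* and *Hvcn1* lie lower in all 3 CGRP neutrophil libraries than in any PBS neutrophil library, and *Ncf1*, *Ncf4* and *Rac2* lie far higher in neutrophils than in macrophages.

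The start sites of *Cybb*, *Ncf1* and *Cyba* are shown because PU.1, the myeloid transcription factor encoded by *Spi1*, is known to act at phox promoters. RefSeq windows on GRCm38.p6 were found for these 3 of the 7 genes, all on the minus strand, from 250 bases before the RefSeq start to 30 after it. For *Cybb* this start lies inside the longer gene span given below, which is that of GENCODE. They are *Cybb* (chrX:9469295-9469574), *Ncf1* (chr5:134229596-134229875) and *Cyba* (chr8:122432911-122433190). Capitals mark the motif GAGGAA, the PU.1 core, read on either strand.
Cybb: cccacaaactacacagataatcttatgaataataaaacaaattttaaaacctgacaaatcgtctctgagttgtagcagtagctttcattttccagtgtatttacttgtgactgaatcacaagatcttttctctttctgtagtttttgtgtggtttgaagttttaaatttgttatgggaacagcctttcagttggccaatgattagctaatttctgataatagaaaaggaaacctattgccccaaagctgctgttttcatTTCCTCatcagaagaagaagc
Ncf1: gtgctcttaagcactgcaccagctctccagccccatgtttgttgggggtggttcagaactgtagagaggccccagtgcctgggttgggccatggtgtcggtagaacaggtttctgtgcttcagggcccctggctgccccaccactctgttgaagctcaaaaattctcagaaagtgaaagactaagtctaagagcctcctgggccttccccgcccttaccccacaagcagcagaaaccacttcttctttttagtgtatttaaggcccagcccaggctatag
Cyba: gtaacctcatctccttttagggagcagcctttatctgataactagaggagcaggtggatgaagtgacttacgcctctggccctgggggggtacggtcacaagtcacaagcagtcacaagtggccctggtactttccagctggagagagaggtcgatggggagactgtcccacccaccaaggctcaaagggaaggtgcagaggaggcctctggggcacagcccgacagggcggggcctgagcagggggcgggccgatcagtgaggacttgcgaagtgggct
The PU.1 core occurred once, in *Cybb*, on the reverse strand (TTCCTC) at positions 10 to 15 after the start. The same letters are present in 25.98% of 32851 promoters of the same length. The letters TGACG, which open the cyclic AMP response element, were found on neither strand of the 3 windows and in 19.89% of all promoters. A match to letters is a description of the window and not evidence of a bound site.

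CGRP-treated neutrophils carried less mRNA for the electron-carrying subunit of the core and for the proton channel. *Hvcn1* fell by 35.8% and *Cybb* by 24.5%, and both passed the test. The partner of *Cybb* in the membrane, *Cyba*, the cytosolic subunits and the Rac GTPases did not. In limma-voom, with p-values adjusted by Benjamini-Hochberg across 9819 genes, 2 of the 7 were thus called, both lower. Of all genes tested 2.53% were called, 1.51% higher and 1.02% lower. In 5 of the 7 genes the 3 CGRP libraries lay below all 3 PBS libraries. The groups were apart in 17.8% of all genes tested, with CGRP above in 8.1% and below in 9.69%. The median log2 fold change of the 7 was -0.17, against 0.0008 over all genes tested.

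*Hvcn1* (ENSMUSG00000064267, chromosome 5, 122206804 to 122242297, plus strand, GRCm38) encodes HV1. It was read at 196, 207 and 195 CPM in PBS neutrophils and at 138, 111 and 135 CPM in CGRP neutrophils. The CGRP libraries formed a group of their own, each below the lowest PBS library. The log2 fold change was -0.64 (SE 0.10; adjusted p = 0.000357, limma-voom), and it passed the threshold in all 6 fits that left out 1 library. Its order from high to low was PBS neutrophils, CGRP neutrophils, PBS macrophages and CGRP macrophages, and each of the last 3 groups overlapped with the next in that order. B cells are known to express *Hvcn1* too. The 5 B cell markers summed to 681, 693 and 720 CPM in PBS neutrophils and to 641, 622 and 620 CPM in CGRP neutrophils, with *Ighm* the most abundant, none at 0 and none of the 5 called by limma-voom, 1 having an unadjusted p under 0.05 (*Ighm*). The T and NK cell markers summed to 114, 125 and 130 CPM with PBS and to 109, 82.4 and 104 CPM with CGRP. Neither of the 2 that could be tested was called by limma-voom, 1 having an unadjusted p under 0.05. Both sums were lower with CGRP in every library, although the median log2 fold change of the 5 B cell markers was 0.16. The B cell sum, mostly *Ighm*, thus does not stand for all 5 markers. The part of either sum in the *Hvcn1* result, or in that of *Cybb* below, was not tested.

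*Cybb* (ENSMUSG00000015340, chromosome X, 9435252 to 9487771, minus strand) encodes gp91phox. PBS neutrophils had 1619, 1641 and 1594 CPM and CGRP neutrophils 1287, 1194 and 1149 CPM. The PBS libraries lay close together (1618 ± 23.5, SD, n = 3) and the CGRP libraries well below them (1210 ± 70.5). The log2 fold change was -0.41 (SE 0.07; adjusted p = 0.00266, limma-voom). All 6 fits without 1 library kept it past the threshold (adjusted p 0.00116 to 0.0360), but a fit without the shallowest library of both groups, replicate 3, did not (-0.38, adjusted p = 0.0555, at the upper end of a range from 7.33e-09 over the alternatives).

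*Cyba* (ENSMUSG00000006519, chromosome 8, 122424776 to 122432930, minus strand) encodes p22phox, without which gp91phox is not stable. It was read at 1907, 2084 and 1771 CPM with PBS and at 1921, 1742 and 1933 CPM with CGRP in neutrophils. The groups overlapped throughout. The log2 fold change was -0.03 (SE 0.08; adjusted p = 0.940, limma-voom), with a 95% interval from -0.19 to 0.14, and its sign turned with library totals in place of TMM (0.02). The core pair thus gave unlike values in neutrophils, a lower *Cybb* beside a *Cyba* whose interval spans 0. Their difference was not tested.

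Among the cytosolic subunits, *Ncf1* (ENSMUSG00000015950, chromosome 5, 134220053 to 134229625, minus strand), which encodes the organizer p47phox, had 1269, 1271 and 1172 CPM in PBS and 1105, 1072 and 1089 CPM in CGRP neutrophils. The groups did not overlap, yet the log2 fold change was small, at -0.17 (SE 0.07; adjusted p = 0.323, limma-voom), and did not pass. *Ncf4* (ENSMUSG00000071715, chromosome 15, 78244801 to 78262580, plus strand), which encodes p40phox, the subunit that binds a phagosomal lipid, had 569.4, 613 and 583 CPM with PBS and 569.3, 519 and 553 CPM with CGRP. Its highest CGRP library lay just under its lowest PBS library, and its change of -0.09 on the log2 scale (SE 0.08; adjusted p = 0.693, limma-voom) did not pass.

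The Rac GTPases are part of the active complex, and *Rac2* is the form known from blood cells. *Rac2* (ENSMUSG00000033220, chromosome 15, 78559167 to 78572783, minus strand) had 2709, 2877 and 2497 CPM in PBS neutrophils and 2411, 2073 and 2189 CPM in CGRP neutrophils. The lowest PBS library lay above the highest CGRP library. The change of -0.26 on the log2 scale (SE 0.08; adjusted p = 0.0978, limma-voom) did not pass. It passed without CGRP neutrophil replicate 1 (-0.31, adjusted p = 0.0331), the highest of the CGRP libraries, and with library totals in place of TMM (adjusted p = 0.0208), within a range from 1.08e-05 to 0.317 over the alternatives. *Rac1* (ENSMUSG00000001847, chromosome 5, 143503634 to 143528036, minus strand), the form present in most cell types, had 124, 136 and 152 CPM with PBS and 131, 129 and 161 CPM with CGRP. Its groups overlapped (log2 fold change 0.04, SE 0.11; adjusted p = 0.932, limma-voom). The last exon of *Rac1* overlaps that of *Daglb* on the opposite strand, and the strand setting of the counting was not given in the sources used here, so that reads of the pair may not have been separated and the *Rac1* values are uncertain.

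None of the 7 genes passed the test in CGRP-treated macrophages, where 9393 genes were tested and 7.43% of them were called, 3.46% higher and 3.97% lower. The count was also 0 with edgeR and with DESeq2, and 3 of the 7 had an unadjusted p under 0.05 in limma-voom. The log2 fold changes of *Ncf1* and *Ncf4* were positive and that of *Hvcn1* was negative, none of them past the threshold. In 2 of the 7 genes, *Ncf1* and *Ncf4*, the CGRP libraries lay above all PBS libraries. The groups were apart in 24.1% of all genes tested, with CGRP above in 11.6% and below in 12.5%. The median log2 fold change of the 7 was 0.15, against 0.0047 over all genes tested.

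*Ncf4* had 132, 144 and 141 CPM in PBS macrophages and 175, 181 and 200 CPM in CGRP macrophages. The lowest CGRP library was thus well above the highest PBS library, and the log2 fold change was 0.41 (SE 0.13; adjusted p = 0.0637, limma-voom). *Ncf1* had 136, 108 and 146 CPM with PBS and 157, 174 and 175 CPM with CGRP, again without overlap (log2 fold change 0.39, SE 0.14; adjusted p = 0.128, limma-voom). Both missed the threshold in the fit of the 6 macrophage libraries, and both passed in a single limma-voom fit over all 12 libraries (adjusted p = 0.0137 for *Ncf4*, within 0.0117 to 0.225 over the alternatives, and 0.0394 for *Ncf1*, within 0.0394 to 0.262). Marker sums moved in the same direction. The 14 neutrophil markers, at 341, 402 and 310 CPM with PBS, reached 452, 430 and 430 CPM with CGRP, with 0 of 9 tested called by limma-voom, 2 at an unadjusted p under 0.05, and at most 1 marker at 0 in any of these libraries. The 11 macrophage markers, at 35273, 39332 and 35346 CPM with PBS, reached 43728, 47502 and 50548 CPM with CGRP, with 1 of 11 called (*Apoe*, log2 fold change 0.46, adjusted p = 0.0263, limma-voom). Their part in the *Ncf1* and *Ncf4* values was not tested.

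In the membrane core, *Cybb* had 692, 672 and 720 CPM in PBS macrophages and 688, 865 and 855 CPM in CGRP macrophages. One CGRP library lay among the PBS libraries and the other two lay above them, at 0.20 on the log2 scale (SE 0.13; adjusted p = 0.422, limma-voom). *Cyba* varied most among PBS macrophages, at 2604, 3476 and 2115 CPM, and its CGRP libraries, at 3147, 2525 and 2810 CPM, fell inside that range (log2 fold change 0.08, SE 0.16; adjusted p = 0.849, limma-voom). Without PBS macrophage replicate 3 its value became -0.09, and without CGRP macrophage replicate 1 it became -0.0088.

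*Hvcn1* had 112, 105 and 137 CPM with PBS and 64.6, 90.9 and 107 CPM with CGRP in macrophages, with the highest CGRP library inside the PBS range. On the log2 scale the change was -0.47 (SE 0.18; adjusted p = 0.137, limma-voom), and it did not pass. The B cell marker sum, mostly *Ighm*, was 120, 121 and 145 CPM with PBS and 107, 102 and 116 CPM with CGRP. In each of these libraries 3 of the 5 markers were at 0. Neither of the 2 tested was called by limma-voom, and the part of this sum in the *Hvcn1* values was not tested. *Rac2* had 343, 303 and 362 CPM with PBS and 318, 366 and 439 CPM with CGRP, and *Rac1* had 195, 194 and 219 CPM with PBS and 163, 210 and 213 CPM with CGRP. Groups overlapped for both GTPases (log2 fold changes 0.15, SE 0.14, and -0.06, SE 0.14; adjusted p = 0.622 and 0.858, limma-voom). *Daglb*, the gene opposite *Rac1*, had 957, 833 and 825 counts in PBS macrophages and 484, 484 and 410 in CGRP macrophages (log2 fold change -0.62, adjusted p = 0.0117, limma-voom), against 110 to 175 counts in neutrophils. Its part in the *Rac1* values was not tested.

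**Figure D2:**
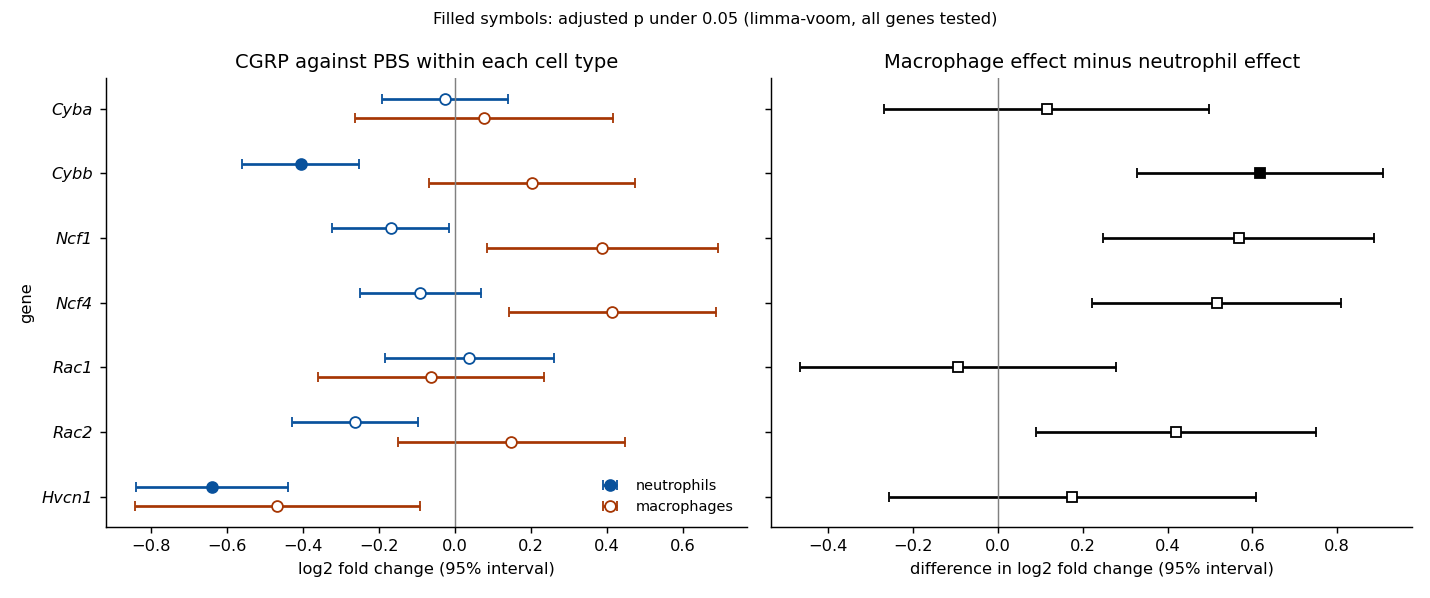
Left, log2 fold change of CGRP against PBS (x axis) for each gene (y axis) in neutrophils and in macrophages; right, the macrophage minus the neutrophil log2 fold change. Bars are 95% intervals of limma-voom and filled symbols have an adjusted p under 0.05, which in the left panel holds for *Cybb* (-0.41) and *Hvcn1* (-0.64) in neutrophils and in the right panel for *Cybb* (0.62).

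An interaction term over all 12 libraries asked whether CGRP acted on a gene unequally in neutrophils and macrophages. Of 10694 genes tested 2.36% were called, 1.21% with the higher effect in macrophages and 1.15% with the lower. *Cybb* alone among the 7 passed, with a macrophage minus neutrophil difference in log2 fold change of 0.62 (SE 0.14; adjusted p = 0.0148, limma-voom). *Ncf1* (0.57, SE 0.15) and *Ncf4* (0.52, SE 0.14) gave differences of similar size and fell just short, at adjusted p = 0.0519 and 0.0549 (limma-voom). Both passed with DESeq2 (adjusted p = 0.0244 and 0.0230, within ranges of 0.0117 to 0.173 and 0.0100 to 0.286 over the alternatives). The *Rac2* difference was 0.42 (SE 0.16; adjusted p = 0.216), that of *Hvcn1* 0.18 (SE 0.21; adjusted p = 0.799), that of *Cyba* 0.11 (SE 0.19; adjusted p = 0.862) and that of *Rac1* -0.09 (SE 0.18; adjusted p = 0.884), all in limma-voom. For *Hvcn1*, whose log2 fold change was negative in both cell types, the 95% interval of the difference ran from -0.26 to 0.61.

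The *Cybb* interaction was near the threshold. Leaving out 1 library ended it in 6 of 12 fits, namely without PBS neutrophil replicate 1 (adjusted p = 0.0508) or 2 (0.0514), CGRP neutrophil replicate 3 (0.0540), PBS macrophage replicate 1 (0.0573), or CGRP macrophage replicate 2 (0.0726) or 3 (0.0569), all in limma-voom. Its size stayed between 0.56 and 0.73 over the 12 fits. Library totals in place of TMM also ended it (0.49, adjusted p = 0.0509, within 0.000814 to 0.164 over the alternatives).

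Without CGRP the 2 cell types used the genes of the complex at very unequal levels. PBS neutrophils had 9.60 times the *Ncf1* level of PBS macrophages, 8.03 times the *Rac2* level, 4.23 times the *Ncf4* level, 2.33 times the *Cybb* level and 1.70 times the *Hvcn1* level, whereas macrophages had 1.48 times the *Rac1* level and 1.40 times the *Cyba* level of neutrophils. All 7 genes passed the test and none overlapped between the groups. In this comparison 67.9% of the 10694 genes tested were called, 35.4% higher and 32.5% lower in neutrophils, and 70.5% did not overlap, 36.6% above and 33.9% below, so that the count itself says little about these genes. Cell type cannot be told apart here from isolation, culture medium and days in culture.

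On the log2 scale these differences were 3.26 for *Ncf1* (SE 0.11), 3.01 for *Rac2* (SE 0.11), 2.08 for *Ncf4* (SE 0.10), 1.22 for *Cybb* (SE 0.10) and 0.77 for *Hvcn1* (SE 0.14), and -0.57 for *Rac1* (SE 0.13) and -0.48 for *Cyba* (SE 0.13). The largest adjusted p among them was 0.00239 (*Cyba*, limma-voom). The order of the groups differed from gene to gene. For *Ncf1*, *Ncf4*, *Cybb* and *Rac2* it ran from PBS neutrophils through CGRP neutrophils and CGRP macrophages to PBS macrophages, and the macrophage groups overlapped for *Cybb* and *Rac2*. For *Cyba* and *Rac1* both macrophage groups had higher means than both neutrophil groups, and within a cell type the groups overlapped.

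**Figure D3:**
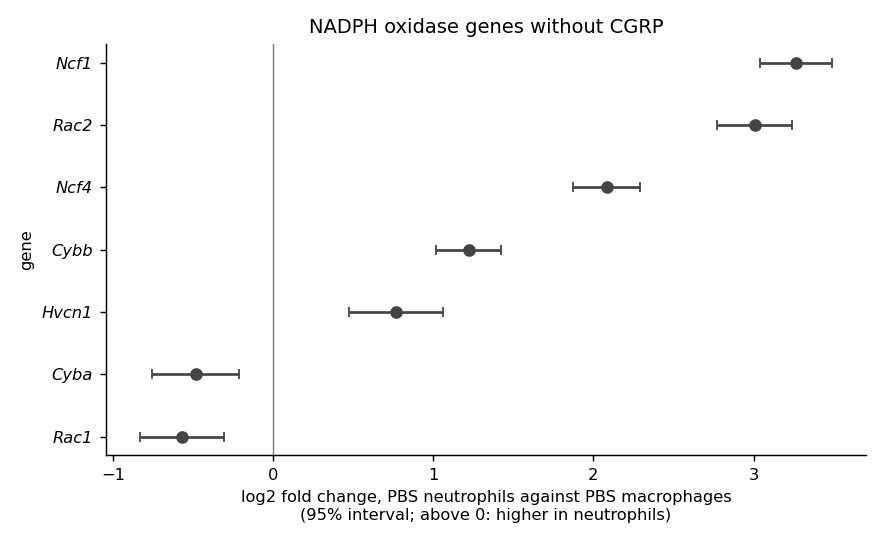
Log2 fold change of PBS neutrophils against PBS macrophages (x axis, with 95% intervals of limma-voom) for each of the 7 genes (y axis). No interval crosses 0; *Ncf1* (3.26) and *Rac2* (3.01) lie farthest above it, and *Cyba* (-0.48) and *Rac1* (-0.57) lie below it.

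The balance between the Rac genes also differed between the cell types. In neutrophils *Rac1* made up 4.38%, 4.50% and 5.73% of the *Rac1* and *Rac2* counts with PBS and 5.15%, 5.86% and 6.85% with CGRP. In macrophages the share was 36.3%, 39.0% and 37.7% with PBS and 33.9%, 36.4% and 32.7% with CGRP. The cell types were far apart, while the CGRP and PBS ranges overlapped in both. Wilson 95% intervals for single libraries, which cover counting error only, lay within 3.97% to 7.55% for neutrophils and within 30.2% to 41.4% for macrophages. The share is of counts from each gene's 3′ end and is subject to the uncertainty of *Rac1* given above.

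**Figure D4:**
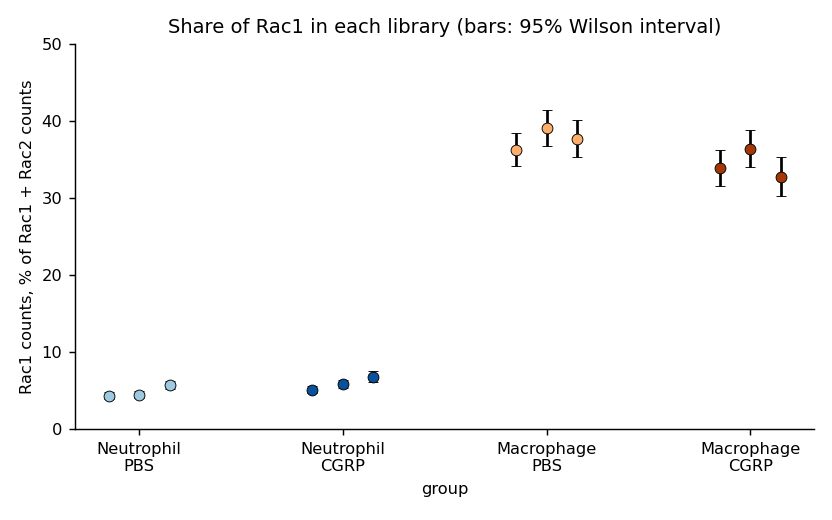
*Rac1* counts as a percentage of *Rac1* plus *Rac2* counts (y axis, from 0) in each of the 12 libraries, by group (x axis), with 95% Wilson intervals. Neutrophil libraries lie between 4.38% and 6.85% and macrophage libraries between 32.7% and 39.0%.

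Added together, the 7 genes took 0.805%, 0.792% and 0.813% of all counts in PBS neutrophils and 0.711%, 0.713% and 0.749% in CGRP neutrophils. They took 0.435%, 0.480% and 0.421% in PBS macrophages and 0.461%, 0.443% and 0.476% in CGRP macrophages. The sum was lower in each CGRP neutrophil library than in any PBS neutrophil library, while the macrophage groups overlapped. No test was run on this sum, since its members were chosen.

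Other subunits and relatives of the oxidase mostly lay below the filter on low counts. Of 12 listed (other NOX and DUOX enzymes and their partners, and genes that act on the stability of gp91phox), 3 could be tested in each cell type, and 7 to 9 had no count in a library. *Rnf145*, which encodes a ubiquitin ligase, was the one gene of the list called for CGRP, in macrophages (1 of 3, against 7.43% of all genes). At an unadjusted p under 0.05 in limma-voom the macrophage count was 2 of 3. In neutrophils 0 of 3 were called by limma-voom (2.53% of all genes), also at an unadjusted p under 0.05. In macrophages *Rnf145* rose from 8.03, 7.79 and 15.8 CPM to 22.6, 24.4 and 30.7 CPM (log2 fold change 1.36, SE 0.27; adjusted p = 0.00451, limma-voom). Without PBS macrophage replicate 1 the adjusted p was 0.0502, the highest of 6 such fits. Between PBS cells 2 of the 3 were higher in neutrophils and 1 lower (35.4% and 32.5% of all genes). The higher ones were *Rnf145* (24.1 ± 5.18 against 10.5 ± 4.57 CPM; log2 fold change 1.26, adjusted p = 0.000181, limma-voom) and *Cybc1*, whose product is needed for gp91phox (72.2 ± 6.35 against 48.6 ± 5.26 CPM; 0.56, adjusted p = 0.00243, but 0.0539 without the shallowest library of each group and up to 0.203 over the alternatives). *Nrros*, whose product limits the oxidase by acting on gp91phox, was lower in PBS neutrophils (170 ± 2.92 CPM) than in PBS macrophages (340 ± 12.4 CPM, SD, n = 3 each), with a log2 fold change of -0.99 (adjusted p = 1.07e-08, limma-voom). In CGRP macrophages *Nrros* stood at 254 ± 21.7 CPM, every library below all PBS macrophage libraries (12.5% of all genes), and it was not called.

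Regulators of Rac and related GTPases formed a list of 20 genes. In neutrophils, where 2.53% of all genes were called, 0 of 19 tested were called by limma-voom, with 4 at an unadjusted p under 0.05, and their median log2 fold change was -0.07. In macrophages, where 3.46% of all genes were called higher and 3.97% lower, 1 of 16 rose and 1 fell. *Rhog*, a GTPase upstream of Rac, rose from 281, 240 and 307 CPM to 373, 524 and 499.6 CPM (log2 fold change 0.75, SE 0.15; adjusted p = 0.00496, limma-voom, and 0.0552 without CGRP macrophage replicate 2, the highest of 6 such fits). *Arhgap25*, which encodes a GTPase-activating protein that turns Rac off, fell from 283, 296 and 267 CPM to 158, 177 and 174 CPM (-0.73, SE 0.13; adjusted p = 0.00146). The groups of both genes were apart. Between PBS cells, where 35.4% of all genes were called higher in neutrophils and 32.5% lower, 11 of 20 regulators were higher in neutrophils and 5 in macrophages. *Tiam2* (19.7 ± 1.52 against 0.300 ± 0.519 CPM) and *Dock5* (44.0 ± 6.68 against 2.78 ± 0.848 CPM), both exchange factors, were among the higher, and *Rac3* (0.120 ± 0.208 against 3.95 ± 1.30 CPM) and the exchange factor *Vav2* (1.91 ± 1.20 against 10.3 ± 5.41 CPM) were among the lower.

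Kinases and lipid signalling genes of the oxidase gave 0 calls of 15 tested by limma-voom in neutrophils (2.53% of all genes), with 3 at an unadjusted p under 0.05, and their median change was -0.08 on the log2 scale. In macrophages 1 of 15 was called (7.43% of all genes). *Pla2g4a*, the cytosolic phospholipase that releases arachidonic acid, fell from 13.5, 14.1 and 15.8 CPM to 5.33, 4.80 and 5.53 CPM (log2 fold change -1.43, SE 0.29; adjusted p = 0.00544, limma-voom). The groups were far apart, on 44 to 47 counts a library with PBS and 11 to 17 with CGRP. Between PBS cells 11 of 15 were called higher in neutrophils (35.4% of all genes) and none in macrophages (32.5% of all genes), led by the kinase gene *Pik3cg* (157 ± 6.67 against 33.1 ± 8.03 CPM) and the phospholipase gene *Plcg2* (164 ± 1.27 against 44.2 ± 8.59 CPM).

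Of the 5 lists, that of receptors which trigger or modulate the oxidative burst held the most calls for CGRP in macrophages, by count. The lists differ in length, and in neutrophils the list of transcription factors held more calls. Of the receptors 1 of 14 was called in neutrophils (2.53% of all genes), *Trem1*, an activating receptor. It rose from 87.9, 93.3 and 93.3 CPM to 157, 165 and 148 CPM (log2 fold change 0.80, SE 0.10; adjusted p = 2.81e-05, limma-voom). In macrophages 3 of 11 rose and 1 fell (3.46% and 3.97% of all genes). The 3 that rose were receptors for the Fc part of IgG, and the fourth such receptor of the list, *Fcgr1*, was not called (165 ± 5.52 CPM with PBS and 174 ± 10.1 CPM with CGRP, SD, n = 3 each). *Fcgr2b*, the inhibitory member of that family, rose from 135, 138 and 147 CPM to 291, 313 and 318 CPM (log2 fold change 1.14, SE 0.12; adjusted p = 1.87e-05). The activating *Fcgr3* rose from 1076, 1369 and 989.9 CPM to 1994, 1524 and 1549 CPM, and *Fcgr4* from 94.1, 109.7 and 106 CPM to 156, 162 and 139 CPM. Their log2 fold changes were both 0.57 (SE 0.15 and 0.14; adjusted p = 0.0283 and 0.0162, limma-voom). *Ptafr*, the receptor for platelet-activating factor, fell from 166, 162 and 226 CPM to 79.6, 138 and 124 CPM (-0.72, SE 0.19; adjusted p = 0.0285). None of these 4 overlapped between the groups. The macrophage marker sum given above was also higher in each CGRP macrophage library, and its part in the Fc receptor values was not tested.

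The calls on the receptors were not equally firm. *Fcgr2b* passed in all 6 fits without 1 library. *Fcgr4* was lost without PBS macrophage replicate 1 (adjusted p = 0.131, limma-voom) or CGRP macrophage replicate 2 (0.108), and *Ptafr* without PBS macrophage replicate 1 (0.0734) or 3 (0.0754) or CGRP macrophage replicate 1 (0.0845). *Fcgr3* passed only without PBS macrophage replicate 2 and gave adjusted p-values up to 0.174 without the other libraries. Without the shallowest library of each group *Ptafr* (adjusted p = 0.0692, limma-voom) and *Fcgr3* (0.0733) did not pass either. Between PBS cells 7 of 14 receptors were higher in neutrophils (35.4% of all genes), led by *Ltb4r1* (339 ± 23.2 against 1.31 ± 0.652 CPM) and *Trem1* (91.5 ± 3.12 against 0.842 ± 0.471 CPM), and 6 in macrophages (32.5% of all genes), led by *C3ar1* (28.8 ± 3.57 against 745 ± 110 CPM) and *Fcgr1* (11.9 ± 2.45 against 165 ± 5.52 CPM).

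Transcription factors known to act on phox genes gave 1 rise and 1 fall among 9 tested in neutrophils (1.51% and 1.02% of all genes). *Irf8*, which encodes a factor of the monocyte lineage known to act on *Cybb*, fell from 139, 113 and 147 CPM to 72.5, 70.4 and 78.9 CPM (log2 fold change -0.83, SE 0.12; adjusted p = 0.000183, limma-voom). The B cell and the T and NK cell marker sums were also lower in these CGRP libraries, with the limit on the B cell sum given above. The macrophage marker sum overlapped between the groups, at 2004, 2005 and 1975 CPM with PBS and 2285, 1788 and 2006 CPM with CGRP. The part of these sums in the *Irf8* values was not tested. *Cebpb* rose from 96.1, 111 and 137 CPM to 170, 152 and 189 CPM (0.59, SE 0.12; adjusted p = 0.00514). It did not pass without PBS neutrophil replicate 1 (0.47, adjusted p = 0.0788) or in the single fit over 12 libraries (adjusted p = 0.105). In macrophages *Cebpb* was the 1 call of 7 tested (7.43% of all genes were called), rising from 96.4, 67.4 and 101 CPM to 155, 210 and 244 CPM (1.20, SE 0.18; adjusted p = 0.000505). *Spi1*, the PU.1 gene, had 357, 361 and 356 CPM in PBS and 353, 335 and 317 CPM in CGRP neutrophils, and 359, 351 and 365 CPM in PBS and 312, 356 and 344 CPM in CGRP macrophages. It was not called in any of the comparisons, with an interval for the log2 difference between PBS cell types of -0.20 to 0.20, and is named here after its values were seen. Between PBS cells 5 of 9 factors were higher in neutrophils (35.4% of all genes), led by *Cebpe* (338 ± 24.7 against 0.702 ± 0.404 CPM) and *Gfi1* (4.64 ± 1.29 CPM against 0 counts in every PBS macrophage library), and 2 in macrophages (32.5% of all genes), *Cebpa* (20.2 ± 8.77 against 55.2 ± 30.8 CPM) and *Irf8* (133 ± 18.0 against 293 ± 42.5 CPM).

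**Figure D5:**
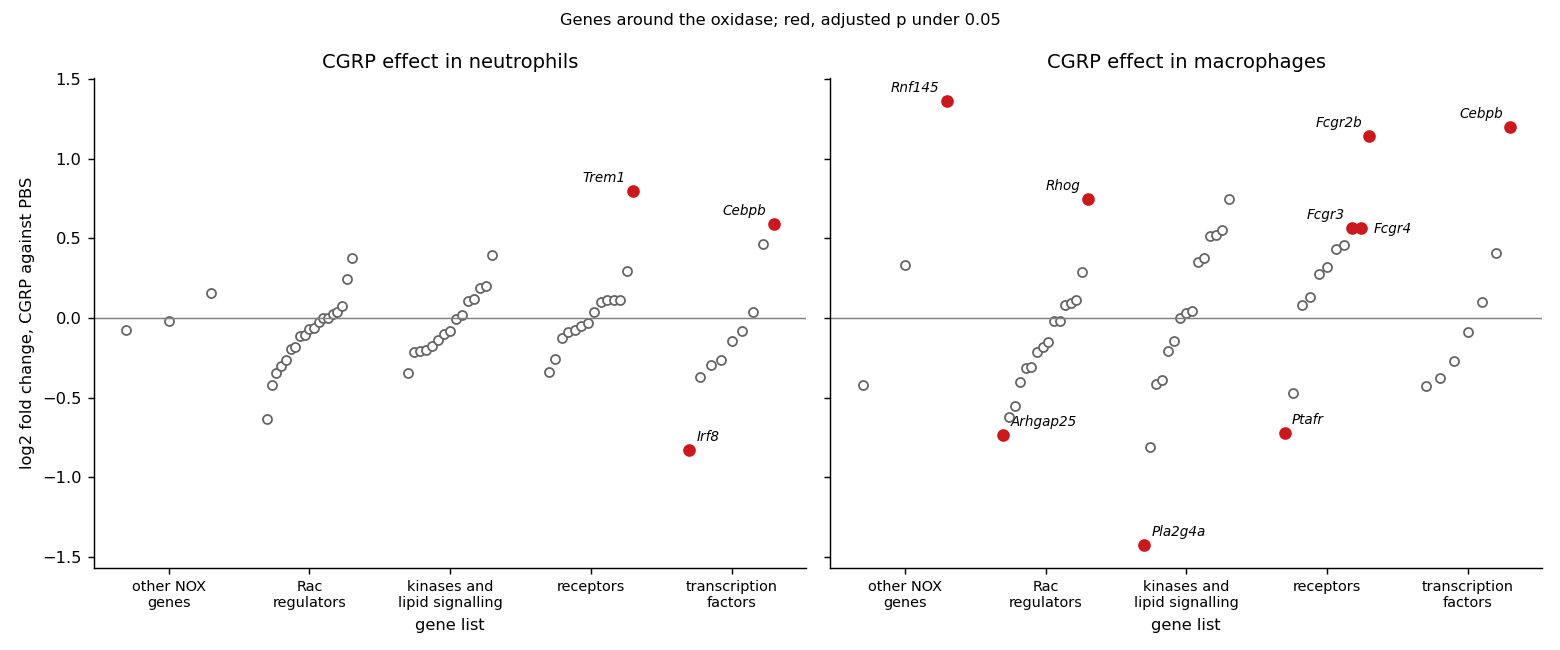
Log2 fold change of CGRP against PBS (y axis) for each tested gene of the 5 lists (x axis) in neutrophils (left) and macrophages (right); red points have an adjusted p under 0.05 in limma-voom and are named. Neutrophils have 3 such genes, *Trem1* (0.80), *Cebpb* (0.59) and *Irf8* (-0.83), and macrophages have 9, from *Rnf145* (1.36) to *Pla2g4a* (-1.43).

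Genes whose pattern over the 12 libraries was most like that of a member were found by the root-mean-square difference between gene-centred log2 CPM, among 10694 genes. *Cybb* was nearest to *Tecr* (0.0861), *Il6ra* (0.119) and *Aldh2* (0.120), and *Hvcn1* to *Lbh* (0.122), *Ptk2b* (0.181) and *Sf3a2* (0.186). Nearest to *Ncf1* were *Pilra* (0.123), *R3hdm4* (0.132) and *Rab3d* (0.138), and nearest to *Ncf4* were *Limd2* (0.0966), *Gmfg* (0.103) and *Cdk2ap2* (0.107). *Rac2* was nearest to *Cnn2* (0.105), *Pilrb1* (0.157) and *Pilra* (0.176), *Rac1* to *Gorasp2* (0.0879), *Ddb1* (0.0967) and *Cuta* (0.0976), and *Cyba* to *Rps18* (0.0721), *Cox4i1* (0.0770) and *Rpl32* (0.0810). Among the members themselves *Ncf1* and *Rac2* were closest (0.155), followed by *Cyba* and *Rac1* (0.265) and by *Cybb* and *Hvcn1* (0.301), while *Ncf1* and *Cyba* were farthest apart (1.78). Where the difference between cell types is much the larger, these distances describe where a gene is high more than how it answered CGRP. For *Hvcn1* the neutrophil CGRP effect (-0.64) was close in size to the difference between PBS cells (0.77). Its neighbours *Lbh* (-0.53, adjusted p = 0.0200) and *Ptk2b* (-0.78, adjusted p = 0.000206) were also called lower in CGRP neutrophils by limma-voom. *Sf3a2* was not. Near *Cybb*, *Tecr* was called (-0.30, adjusted p = 0.0397, limma-voom), and *Il6ra* and *Aldh2* were not.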

How the data were processed

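Counts per gene in 12 libraries were deposited by the authors as raw counts, in a table for each cell type. Per the labels and the study's methods, cDNA was primed with oligo-dT from 20 ng of RNA, molecular identifiers removed PCR copies in the nfCore/RNAseq pipeline, and reads were aligned to GRCm38 with STAR and counted with featureCounts. The annotation release and strand setting were not given in the sources used here. No library was a copy of another.

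Each cell type's 6 libraries were filtered with filterByExpr, scaled by TMM and tested with limma-voom (two-sided, Benjamini-Hochberg over all genes tested, threshold 0.05). TMM, limma-voom and the threshold are those of the study, whose filter was not given in the sources used here. The interaction and the comparison of PBS groups came from a fit over 12 libraries. The genes named are the 7 members, those of 5 related lists that were called for CGRP or were the 2 most unequal between PBS cells in each direction, and the 3 genes most like each member (log2 CPM, prior count 2). Members and lists were chosen with earlier results of these data known, and 1 gene of the lists is not reported here. Genes that overlap a member in antisense, other than *Daglb*, reached no more than 27 counts in any library. Of the 31-base sequences in the last 500 bases of a member's longest transcript, 5.53% for *Ncf1* and none for the others occur in another annotated gene.

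Results were recomputed with DESeq2 and the quasi-likelihood test of edgeR, with library totals or DESeq2 size factors in limma-voom, with no filter or a minimum of 10 counts in all libraries, with quality weights, with a block for the replicate number, after thinning to the smallest library, in a single fit over 12 libraries, without each library and, added after seeing the data, without the shallowest library of each group. The steps were tested on simulated data with known changes. Of true 2-fold changes limma-voom recovered 66% in neutrophils, 57.3% in macrophages, 26% in the interaction and 68.4% between PBS groups. False calls numbered 12, 11, 5 and 5 in that order. Smaller changes were not simulated, so that a gene that did not pass may still have changed. R 4.3.3, limma 3.58.1, edgeR 4.0.16, DESeq2 1.42.0 and Python 3.11.15 were used. Positions came from GENCODE, in which 52403 of 52636 gene identifiers were found, and promoter windows from RefSeq.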

Additional observations from a re-analysis of the deposited data

Results flagged for a closer look

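Effects of CGRP that differed between the cell types by a limma-voom interaction over 12 libraries were found for 1 of the 7 members and, over the lists, for 1 of 20 Rac regulators, 1 of 15 kinases and lipid signalling genes, 1 of 14 receptors, 0 of 3 other oxidase genes and 0 of 9 transcription factors, against 2.36% of all 10694 genes tested. At an unadjusted p under 0.05 the last 2 lists had 2 and 4 genes. *Cybb* gave a macrophage minus neutrophil difference in log2 fold change of 0.62 (adjusted p = 0.0148), with neutrophils lower in 3 of 3 CGRP libraries. This difference passed in 6 of the 12 fits without 1 library, and not without the shallowest library of each group (0.54, adjusted p = 0.164, limma-voom). *Arhgap25* gave -0.70 (adjusted p = 0.00910), with macrophages lower in 3 of 3 CGRP libraries, and passed in all 12 fits without 1 library, but not without the shallowest library of each group (-0.75, adjusted p = 0.0506, the highest over the alternatives). *Pla2g4a* gave -1.41 (adjusted p = 0.0446) on few counts. It passed in 2 of the 12 fits without 1 library, those without PBS neutrophil replicate 1 and CGRP neutrophil replicate 2, with adjusted p-values up to 0.133. The call was also lost with no filter (adjusted p = 0.0870, limma-voom), after thinning (0.0950) and without the shallowest library of each group (0.194). *Fcgr2b* gave 1.49 (adjusted p = 3.80e-06), lower with CGRP in 3 of 3 neutrophil libraries and higher in 3 of 3 macrophage libraries, and passed in all 12 fits. *Cdk2ap2*, named as one of the genes nearest to *Ncf4*, also passed (0.65, adjusted p = 0.00910). *Ncf1* and *Ncf4* also lay lower with CGRP in 3 of 3 neutrophil libraries (9.69% of all genes) and higher in 3 of 3 macrophage libraries (11.6%). For *Ncf4* in neutrophils the groups all but touched, at 569.3 CPM with CGRP against 569.4 CPM with PBS. The test of the difference between cell types missed the threshold for *Ncf1* and *Ncf4* (adjusted p = 0.0519 and 0.0549, limma-voom). Groups of 3 libraries were not tested for single outlying libraries.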

How the results depend on the processing

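The PBS comparison called all 7 members in every alternative and without any 1 library. In neutrophils 2 members were called, 4 with no filter on low counts (*Ncf1* and *Rac2* besides *Cybb* and *Hvcn1*), 1 without the shallowest library of each group (*Hvcn1*), 3 with library totals (*Rac2* added), 2 under the other alternatives and 2 to 3 without 1 library. In macrophages 0 were called, 2 with quality weights and 2 in a single fit over 12 libraries (*Ncf1* and *Ncf4* in both), 0 under the other alternatives and 0 in all fits without 1 library. The interaction called 1, but 3 with DESeq2, 3 with no filter and 3 with quality weights, 2 after thinning, 0 with library totals, 0 without the shallowest library of each group and 0 to 3 without 1 library. The cause of these shifts was not tested.

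Signs turned only for genes that were not called. Library totals turned *Cyba* to 0.0215 in neutrophils and to -0.0053 in the interaction, quality weights turned *Rac1* to 0.0196 in macrophages, and leaving out the shallowest library of each group turned *Cyba* to -0.0838 in macrophages. Without 1 library the log2 fold change in neutrophils ran from -0.0802 to 0.0235 for *Cyba* and from -0.0593 to 0.11 for *Rac1*. It ran in macrophages from -0.0866 to 0.26 for *Cyba* and from -0.13 to 0.0616 for *Rac1*, and in the interaction from -0.0522 to 0.30 for *Cyba* and from -0.20 to 0.0376 for *Rac1*.

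Over all genes, 248 were called in neutrophils, 137 in the single fit, 163 without the shallowest libraries and 138 to 234 without 1 library. In macrophages 698 became 1406 with quality weights, 1050 in the single fit and 347 to 765 without 1 library, and in the interaction 252 became 520, 136 without the shallowest libraries and 149 to 328. Library totals changed the split of higher and lower calls from 148 and 100 to 150 and 64 in neutrophils and from 129 and 123 to 88 and 154 in the interaction, where the median over all genes moved from 0.02 to -0.10. It changed the split from 325 and 373 to 245 and 405 in macrophages and from 3791 and 3472 to 3441 and 3720 between PBS cells. With the replicate block 2 members were called in neutrophils, 0 in macrophages, 1 in the interaction and 7 between PBS groups, and *Cybc1* was lost between PBS groups (0.31, adjusted p = 0.203, limma-voom, the highest over the alternatives). The numbers were not shown to pair the libraries, since same-numbered libraries had correlations of their deviations of 0.042, -0.013 and 0.14 in neutrophils and 0.059, -0.18 and 0.27 in macrophages, and not every library correlated best with its own number. With 3 libraries a group and 2002559 to 3631989 counts each, small changes and low genes such as *Pla2g4a* and *Rnf145* are measured least precisely.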
